A study of Homo sapiens with 12 samples.

Results

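The genes studied were 10 secreted proteins of the extracellular matrix: fibronectin (FN1), vitronectin (VTN), tenascin-C (TNC), SPARC, periostin (POSTN), matrilin-2 (MATN2), fibulin-1 (FBLN1), fibrillin-1 (FBN1), elastin (ELN) and matrix Gla protein (MGP). They were chosen by gene symbol, 10 of the 23273 genes listed in both expression tables. RNA was sequenced in 12 libraries of COLO858 and MMACSF, human BRAF-mutant melanoma cell lines. Each line had 2 replicates under DMSO, the vehicle, and 2 each after 24 h and 48 h in 0.2 μM vemurafenib, an inhibitor of the mutant RAF kinase. No time is given for the DMSO cells in the labels, and the same DMSO pair serves both drug times. In the steps from 24 h to 48 h, time in culture cannot be told apart from time in the drug. The same holds against DMSO wherever the DMSO time differed. The lines were grown in different media and plated at different densities, so the line and these conditions cannot be told apart. The set was proposed with the drug responses of these same libraries known. The changes of its members are therefore described with their errors, and no p-value is attached to them. Other genes named below were also chosen with earlier results of these data known. The p-values beside those genes are descriptions too.

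Fibronectin and vitronectin are adhesive glycoproteins that cells bind through integrins, and fibronectin is assembled into fibrils to which other matrix proteins attach. Tenascin-C, SPARC and periostin are matricellular proteins, which act on adhesion and matrix assembly more than they carry load. Fibronectin, tenascin-C and SPARC are well known from melanoma. Matrilin-2 and fibulin-1 link other matrix components, fibrillin-1 and elastin build elastic fibres, and matrix Gla protein is an inhibitor of calcification that needs vitamin K-dependent gamma-carboxylation.

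Levels are given as FPKM, read fragments divided by transcript length and by the mapped total of the library, which allows genes to be compared within a library. The authors deposited 1 table per line, and it is not stated whether both were scaled together, so levels were compared only within a line. The summed FPKM ranged from 670310 to 1013038 per library, and 11679 to 11972 genes reached 1 FPKM. The depth is unknown, and with it the counting error of a single value. The labels say that each line was plated in 2 replicates and do not say whether these came from separate cell stocks or days, so errors measure only the spread between these plates. TUBB, a tubulin gene that every cell uses, was listed at 0 in all 12 libraries, so a value of 0 in these tables can be a failed estimate. Changes are log2 fold changes of FPKM + 1 with their SE, fitted with limma, an R package that shares variance estimates across genes. This scale understates the change of a gene near or under 1 FPKM. A change was called at an adjusted p below 0.01, after Benjamini-Hochberg adjustment over all genes tested. A gene was tested in a line where at least 1 group mean reached 1 FPKM, as 9 of the 10 genes did in COLO858 and 7 in MMACSF. The 24 h and 48 h comparisons share their DMSO libraries and are not independent. Fits were repeated with each library left out. These called fewer genes at large against DMSO in both lines, for the differences between lines and from 24 h to 48 h in COLO858. A call lost there is not particular to the gene named. From 24 h to 48 h in MMACSF, more genes at large were called when either 48 h library was left out.

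The promoters of FN1, TNC and SPARC are shown because these genes had the highest levels of the set under DMSO in both lines and differed in the course they took under the drug. Each sequence is the 250 bases before the transcription start, 5′ to 3′ on the gene's strand, which is the minus strand for all 3. They come from RefSeq in the build GRCh38.p14, with FN1 at chr2:215436069-215436318, TNC at chr9:115118158-115118407 and SPARC at chr5:151686916-151687165. Capitals mark matches to the motifs searched.
FN1: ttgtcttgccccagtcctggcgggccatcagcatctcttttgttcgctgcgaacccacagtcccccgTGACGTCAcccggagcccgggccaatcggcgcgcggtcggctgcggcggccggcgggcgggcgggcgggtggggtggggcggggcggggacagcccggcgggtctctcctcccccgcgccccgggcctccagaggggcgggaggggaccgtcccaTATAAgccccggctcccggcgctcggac
TNC: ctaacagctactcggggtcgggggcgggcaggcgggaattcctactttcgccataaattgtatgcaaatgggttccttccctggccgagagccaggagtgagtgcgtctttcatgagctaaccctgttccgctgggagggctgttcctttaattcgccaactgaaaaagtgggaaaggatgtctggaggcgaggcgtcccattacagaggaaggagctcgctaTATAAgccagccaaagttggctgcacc
SPARC: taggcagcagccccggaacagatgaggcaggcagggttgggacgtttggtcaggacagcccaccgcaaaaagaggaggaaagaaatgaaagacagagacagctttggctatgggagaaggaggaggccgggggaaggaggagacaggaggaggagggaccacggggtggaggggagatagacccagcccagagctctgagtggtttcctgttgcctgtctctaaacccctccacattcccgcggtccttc
The motifs were an AP-1 site (TGANTCA), a CRE (TGACGTCA), an E-box (CACGTG) and an M-box core (CATGTG) on both strands, and a TATA box (TATAA) on the gene's strand within 40 to 20 bases before the start. They were chosen with the sequences in view and do not overlap one another in these promoters. FN1 held a CRE at bases 183 to 176 before the start and a TATA box at bases 28 to 24. TNC held only a TATA box, at bases 27 to 23, and SPARC matched none of these motifs. Among 27305 promoters of the same length, 1.73% held the CRE, 4.22% the TATA box, 6.84% the AP-1 site, 6.28% the E-box and 9.78% the M-box core. Of the 10 members, 7 had an entry (all but MATN2, ELN and MGP). Among the other 4 entries, POSTN held an AP-1 site (TGAGTCA) at bases 220 to 214 and a TATA box at bases 29 to 25, and FBN1, FBLN1 and VTN held none of the motifs. A match describes letters and shows no binding.

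FN1 rose in COLO858 and fell in MMACSF by 48 h. It lies on the minus strand of chromosome 2 (GRCh37, 216225163 to 216300796). In COLO858 its libraries read 37.0 and 38.0 FPKM under DMSO, 44.0 and 45.2 at 24 h, and 69.4 and 68.3 at 48 h. The 3 groups did not overlap and followed the order of time. The change was 0.24 ± 0.12 at 24 h, not called, and 0.86 ± 0.12 at 48 h, a ratio of means of 1.84. In MMACSF its libraries read 823 and 826 FPKM under DMSO, 701 and 826 at 24 h, and 366 and 407 at 48 h. The 24 h libraries overlapped the DMSO pair, and the 48 h libraries lay below both other groups. The MMACSF change was -0.12 ± 0.13 at 24 h (95% interval -0.44 to 0.21) and -1.09 ± 0.13 at 48 h, a ratio of means of 0.469. Both 48 h calls ended when any 1 of the line's 6 libraries was left out, while the values stayed between 0.84 and 0.88 in COLO858 and between -1.17 and -1.02 in MMACSF.

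VTN rose in COLO858 from a low level. Its libraries read 0.394 and 0.381 FPKM under DMSO, 3.34 and 4.21 at 24 h, and 4.62 and 3.80 at 48 h. Both drug groups lay above DMSO and overlapped each other, with changes of 1.78 ± 0.17 at 24 h and 1.90 ± 0.17 at 48 h. In MMACSF its libraries read 0.603 and 0.524 FPKM under DMSO, 1.74 and 1.25 at 24 h, and 1.52 and 0.891 at 48 h. The drug-treated libraries lay above DMSO, but the changes of 0.67 ± 0.21 and 0.48 ± 0.21 were not called. VTN (chromosome 17, 26694305 to 26700110, minus strand) shares 329 exonic bases, 17.3% of its exons, with an annotated gene on the same strand, so its values are uncertain. Both COLO858 calls ended without any 1 of the 4 libraries compared, with values of 1.65 to 1.91 at 24 h and 1.79 to 2.02 at 48 h.

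**Figure D1:**
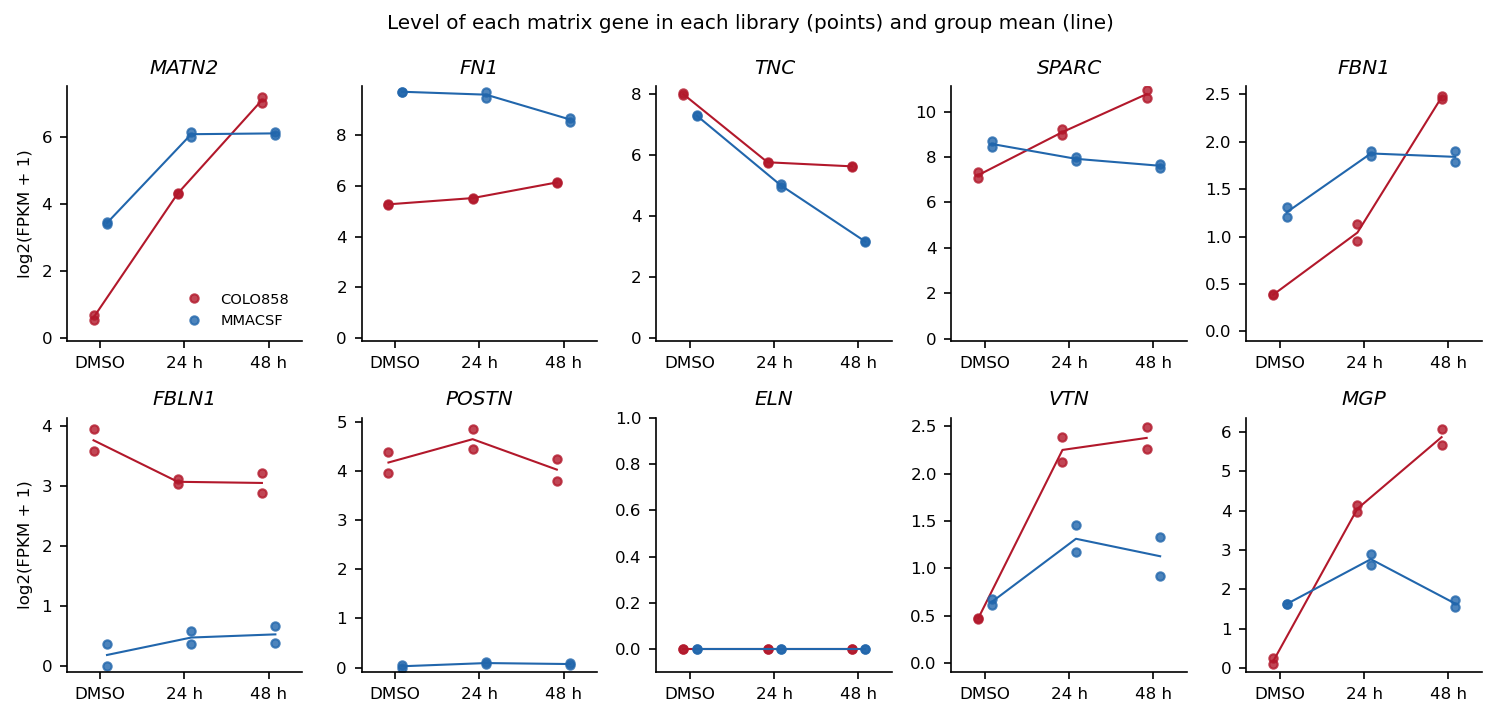
Level of each of the 10 genes in each library, as log2(FPKM + 1), under DMSO and after 24 h and 48 h in vemurafenib (COLO858 red, MMACSF blue, 2 points per group, lines through the group means). The vertical scales differ between panels, SPARC and FN1 end on opposite sides of their DMSO level in the lines, TNC runs down in both, and ELN lies at 0 throughout.

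TNC fell in both lines, and further in MMACSF by 48 h. In COLO858 its libraries read 256 and 247 FPKM under DMSO, 53.4 and 52.4 at 24 h, and 47.4 and 48.9 at 48 h. The DMSO pair lay far above the drug-treated libraries, and the 48 h pair lay just below the 24 h pair. The change was -2.23 ± 0.11 at 24 h, 4.76-fold lower by the means, and -2.36 ± 0.11 at 48 h, 5.23-fold lower. From 24 h to 48 h it changed by -0.13 ± 0.11 (95% interval -0.41 to 0.15), which was not called. In MMACSF TNC read 156 and 153 FPKM under DMSO, 29.8 and 31.9 at 24 h, and 7.76 and 8.08 at 48 h. No group overlapped another, and the level stepped down at each time. The changes were -2.29 ± 0.11 at 24 h, 5.01-fold lower, and -4.12 ± 0.11 at 48 h, 19.5-fold lower. The further fall from 24 h to 48 h, of -1.84 ± 0.11, was called, but not without any 1 of the 6 MMACSF libraries (-1.88 to -1.79). The TNC calls against DMSO held without each library, except at 24 h in MMACSF without either DMSO library (-2.34 to -2.24). TNC lies on chromosome 9 (117781854 to 117880486, minus strand).

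SPARC, a collagen-binding protein, took opposite courses in the lines. In COLO858 it read 132 and 162 FPKM under DMSO, 502 and 598 at 24 h, and 1564 and 1958 at 48 h. The groups did not overlap, and SPARC rose 3.72-fold at 24 h (1.90 ± 0.18) and 11.9-fold at 48 h (3.57 ± 0.18) on the fitted scale. The step from 24 h to 48 h, of 1.67 ± 0.18, was not called. It was called with a pseudocount of 0.1, with median-ratio rescaling and with the replicate number as a block. In MMACSF SPARC read 347 and 418 FPKM under DMSO, 225 and 259 at 24 h, and 185 and 206 at 48 h. The groups again did not overlap, and here the order ran downward. The change was -0.66 ± 0.15 at 24 h, not called, and -0.96 ± 0.15 at 48 h, a ratio of means of 0.511. This 48 h call in MMACSF was lost without a filter, without a variance trend, with only the libraries compared, and without any 1 library (-1.10 to -0.83). The 24 h call in COLO858 was lost without any 1 of the 4 libraries compared (1.75 to 2.04). Replicate 2 of SPARC read higher than replicate 1 in 6 of 6 groups, by 1.11 to 1.25 times. SPARC lies on chromosome 5 (151040657 to 151066536, minus strand).

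POSTN was present in COLO858 and close to 0 in MMACSF. In COLO858 it read 14.5 and 19.9 FPKM under DMSO, 20.8 and 27.7 at 24 h, and 12.9 and 18.0 at 48 h. The 48 h libraries overlapped the DMSO pair, and replicate 2 read higher than replicate 1 in each group, by 1.33 to 1.39 times. The POSTN changes of 0.47 ± 0.26 and -0.14 ± 0.26 were not called (95% intervals -0.17 to 1.12 and -0.79 to 0.50). With the replicate number as a block, the 24 h change and the step from 24 h to 48 h (-0.62) were called. The labels do not say that these numbers pair libraries. In MMACSF the highest library of POSTN read 0.0786 FPKM, and POSTN was not tested there.

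MATN2 rose in both lines. At 48 h it had the largest change of the set in COLO858 on the scale of FPKM + 1, whereas with a pseudocount of 0.1 that of MGP was larger (7.96 against 7.80). There it read 0.436 and 0.601 FPKM under DMSO, 18.8 and 18.9 at 24 h, and 128 and 145 at 48 h. No group overlapped another, and MATN2 went from under 1 FPKM to a level above that of every member but SPARC. The changes were 3.71 ± 0.14 at 24 h, 6.50 ± 0.14 at 48 h, and 2.79 ± 0.14 between these times, and all 3 were called. By size MATN2 stood at place 13 of the 522 genes called higher at 24 h and at place 3 of 602 at 48 h. In MMACSF it read 9.48 and 10.0 FPKM under DMSO, 63.1 and 70.6 at 24 h, and 66.3 and 69.7 at 48 h. Both drug groups lay above DMSO and overlapped each other. The MMACSF changes of 2.66 ± 0.12 and 2.68 ± 0.12 were called, and the change from 24 h to 48 h was 0.02 ± 0.12 (95% interval -0.27 to 0.32). The COLO858 step from 24 h to 48 h was no longer called without any 1 of the 6 libraries (2.70 to 2.88), and the other MATN2 calls within a line held there. MATN2 lies on chromosome 8 (98881068 to 99048952, plus strand).

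FBLN1, which binds fibronectin and elastic fibres, was not called in COLO858 and not tested in MMACSF. In COLO858 it read 14.3 and 10.9 FPKM under DMSO, 7.65 and 7.13 at 24 h, and 8.27 and 6.38 at 48 h. All drug-treated libraries lay below the DMSO pair, with changes of -0.69 ± 0.20 at 24 h (95% interval -1.19 to -0.19) and -0.71 ± 0.20 at 48 h (-1.21 to -0.21). In MMACSF it lay between 0 and 0.592 FPKM.

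FBN1, the main protein of microfibrils, rose in COLO858 by 48 h. It read 0.301 and 0.314 FPKM under DMSO, 0.932 and 1.19 at 24 h, and 4.48 and 4.58 at 48 h. The 3 groups did not overlap, and the change was 0.65 ± 0.14 at 24 h, not called, and 2.08 ± 0.14 at 48 h. The step between these times, of 1.43 ± 0.14, was called, but not without any 1 library (1.34 to 1.52), without a filter, with only the libraries compared or with a pseudocount of 0.1. The 48 h call was lost without any 1 of the 4 libraries compared (2.07 to 2.09), and with a pseudocount of 0.1 that change was 3.51. In MMACSF FBN1 read 1.48 and 1.30 FPKM under DMSO, 2.60 and 2.74 at 24 h, and 2.44 and 2.72 at 48 h. These lay above DMSO, with changes of 0.62 ± 0.15 and 0.58 ± 0.15 that were not called. ELN, the core protein of elastic fibres, was listed at 0 in all 12 libraries.

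MGP rose in COLO858 from close to 0. It read 0.0752 and 0.202 FPKM under DMSO, 14.5 and 16.6 at 24 h, and 49.5 and 65.6 at 48 h. The 3 groups did not overlap. The changes were 3.86 ± 0.19 at 24 h and 5.67 ± 0.19 at 48 h, the latter at place 5 of the 602 genes called higher. With a pseudocount of 0.1 they were 6.09 and 7.96. The step from 24 h to 48 h was 1.81 ± 0.19 and was not called, except with median-ratio rescaling and with the replicate number as a block. In MMACSF MGP read 2.11 and 2.08 FPKM under DMSO, 6.49 and 5.19 at 24 h, and 1.97 and 2.30 at 48 h. Only the 24 h pair lay apart, above the others, and its change of 1.14 ± 0.16 was not called. That 24 h change was called without a variance trend and with the replicate block. At 48 h the MMACSF change was 0.01 ± 0.16 (95% interval -0.40 to 0.43). MGP lies on chromosome 12 (15033798 to 15038791, minus strand). Exons of TNC, SPARC and MGP are overlapped on the opposite strand over 1.35%, 4.12% and 2.63% of their length by the annotated genes DELEC1, CLMAT3 and C12orf60, and the strand setting of the counting is not stated.

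**Figure D2:**
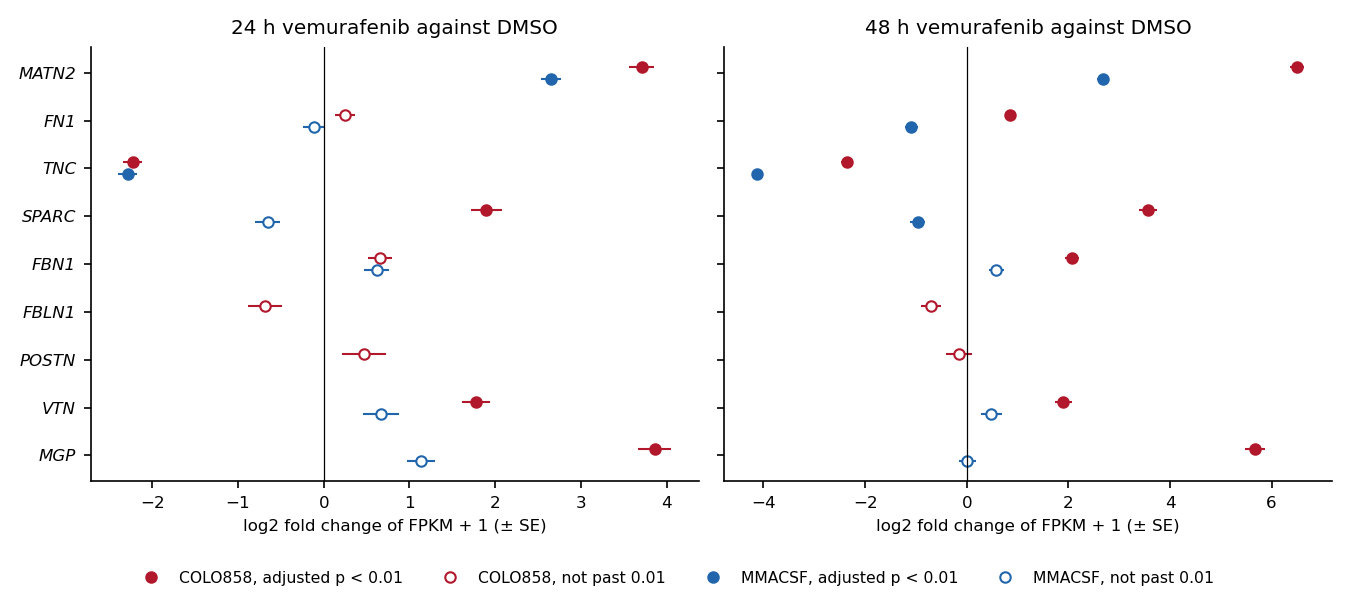
Log2 fold change of FPKM + 1 against DMSO with its SE at 24 h (left) and 48 h (right) for the tested genes (COLO858 red, MMACSF blue, filled where the adjusted p was below 0.01). At 48 h FN1 and SPARC lie on opposite sides of 0 in the lines, while MATN2 lies right of 0 and TNC left of 0 in both.

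Counted together, 4 of the 9 tested members were called higher and 1 lower in COLO858 at 24 h, where 9.82% of all genes tested were called (4.11% higher and 5.71% lower). At 48 h in COLO858, 6 were called higher and 1 lower, beside 9.47% of all genes (4.74% higher and 4.73% lower). From 24 h to 48 h in COLO858, 2 were called higher and 0 lower, beside 1.38% (1.17% higher and 0.213% lower). In MMACSF 1 of the 7 tested members was called higher and 1 lower at 24 h, beside 5.83% of all genes (2.22% higher and 3.60% lower). At 48 h in MMACSF, 1 was called higher and 3 lower, beside 8.83% (3.42% higher and 5.41% lower). From 24 h to 48 h in MMACSF, 0 were called higher and 1 lower, beside 0.222% (0.111% in each direction). The median member change in COLO858 was 0.65 at 24 h and 1.90 at 48 h, against 0.06 and -0.01 over all genes tested. In MMACSF it was 0.62 and 0.01, against 0.07 and 0.06. Since the members were chosen with these responses known, nothing is read from their counts.

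By summed FPKM the main member of the set in COLO858 passed from TNC to SPARC. The 10 genes summed to 456 and 480 FPKM under DMSO, 665 and 772 at 24 h, and 1889 and 2318 at 48 h. TNC made up 56.3% and 51.6% of that sum under DMSO and 2.51% and 2.11% at 48 h. SPARC went from 29.0% and 33.8% to 82.8% and 84.4%. At 48 h the levels in COLO858 ran in the order SPARC, MATN2, FN1, MGP and TNC, and the libraries of neighbouring genes in that order did not overlap. In MMACSF the sum went from 1339 and 1412 FPKM under DMSO to 1030 and 1198 at 24 h and 631 and 697 at 48 h. FN1 made up 57.9% to 69.0% of it across the libraries, and SPARC 21.6% to 29.6%. TNC went from 11.6% and 10.8% under DMSO to 1.23% and 1.16% at 48 h, and MATN2 from 0.708% and 0.712% to 10.5% and 9.99%. These are RNA levels of whole cultures, in which fewer cells of a kind and less RNA per cell cannot be told apart, and secreted protein was not analysed here.

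**Figure D3:**
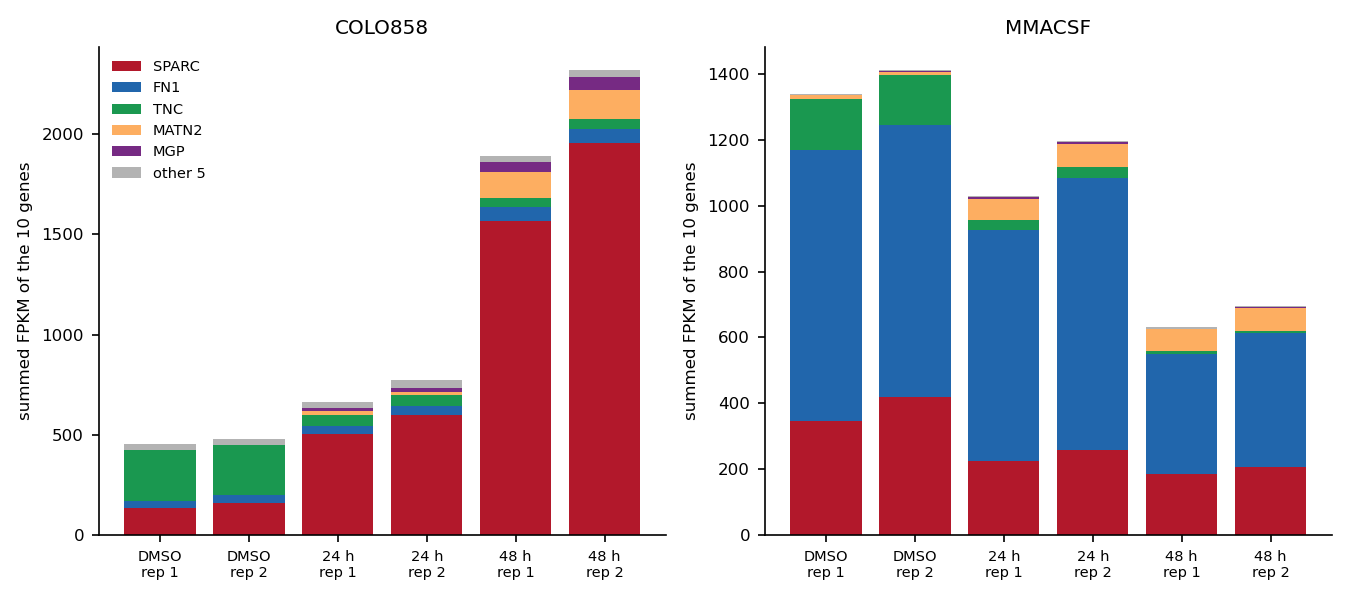
Summed FPKM of the 10 genes in each library of COLO858 (left) and MMACSF (right), stacked by gene, with the 5 genes not named in the key in grey. The vertical scales differ. The COLO858 sum grows mainly in SPARC, and the MMACSF sum shrinks in FN1, SPARC and TNC.

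The difference between the lines in their response was fitted over all 12 libraries as the COLO858 change minus the MMACSF change. At 24 h it was called for 3 of the 9 tested members, each with a positive difference: MGP (2.72 ± 0.24), SPARC (2.55 ± 0.24) and MATN2 (1.05 ± 0.16). Of all genes tested, 3.71% were called (1.78% higher and 1.93% lower). At 48 h it was called for 7, beside 7.48% of all genes (4.19% higher and 3.30% lower). These were MGP (5.66 ± 0.24), SPARC (4.53 ± 0.24), MATN2 (3.82 ± 0.16), FN1 (1.95 ± 0.14), TNC (1.76 ± 0.12), FBN1 (1.50 ± 0.16) and VTN (1.42 ± 0.25). The TNC difference lay between falls of unequal size and the MATN2 difference between rises of unequal size, whereas those of SPARC and FN1 lay between a rise and a fall. At 24 h the TNC responses differed by 0.06 ± 0.12 (95% interval -0.21 to 0.33) and those of FBN1 by 0.03 ± 0.16 (-0.32 to 0.39). The 48 h call of VTN was lost without any 1 of 9 of the 12 libraries (1.21 to 1.63 over all 12), and that of MATN2 at 24 h without any 1 of 10 (0.97 to 1.13). The MATN2 difference at 24 h was 2.19 with a pseudocount of 0.1.

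**Figure D4:**
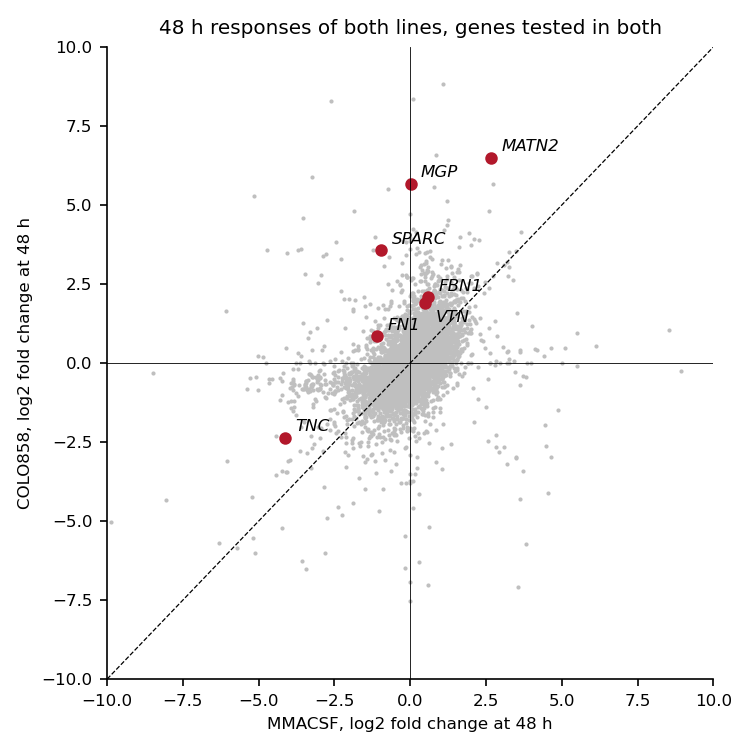
Log2 fold change at 48 h against DMSO in MMACSF (horizontal) and COLO858 (vertical) for each gene tested in both lines (grey) and the 7 members among them (red), with a dashed line where both are equal. All 7 members lie above that line, with MGP near 0 on the MMACSF axis and SPARC and FN1 at the upper left.

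The genes most like FN1, TNC, SPARC and MATN2 were sought by Pearson's r over the 12 libraries, on log2(FPKM + 1) less the line's DMSO mean, among 3018 genes with a change of at least 1 in some comparison. The points share their libraries and DMSO means, so the values are descriptions. Nearest to SPARC were PHLDB2 (r = 0.994), ENC1 (r = 0.994) and PLAT, the tissue plasminogen activator (r = 0.993). PHLDB2 had changes of 1.69 and 3.98 in COLO858 and -0.91 and -1.16 in MMACSF at 24 h and 48 h. Nearest to MATN2 were MLIP (r = 0.994), CPQ (r = 0.989) and RCAN2 (r = 0.988). Among the genes nearest to TNC were the glycolytic enzyme PGAM1 (r = 0.984) and TDRKH (r = 0.983). Their changes were smaller than those of TNC, as with PGAM1 at -0.71 and -0.78 in COLO858 and -0.92 and -1.30 in MMACSF. Nearest to FN1 were DLX6 (r = 0.951), CSRP2 (r = 0.936) and KIAA1217 (r = 0.929).

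Among receptors for these proteins, ITGB3 and ITGA9 fell in COLO858, and ITGA4 was called in opposite directions in the lines. Of 12 integrin and syndecan genes, 10 were tested in COLO858, where 1 rose and 3 fell at 24 h and 0 rose and 2 fell at 48 h. Of all genes tested there, 4.11% rose and 5.71% fell at 24 h, and 4.74% rose and 4.73% fell at 48 h. Of 9 receptor genes tested in MMACSF, 0 were called at 24 h by limma, with 5 at an unadjusted p under 0.05, and 1 fell at 48 h. In MMACSF 5.83% of all genes tested were called at 24 h, and 5.41% fell at 48 h. ITGB3, which pairs with the alpha-V chain into a vitronectin receptor, read 167 and 181 FPKM under DMSO in COLO858, 29.1 and 29.5 at 24 h, and 15.5 and 15.0 at 48 h. It fell by 2.53 ± 0.12 and 3.43 ± 0.12 on the log2 scale (limma adjusted p = 0.000688 and 0.000262). In MMACSF ITGB3 read 63.8 and 75.3 FPKM under DMSO and 41.3 and 46.4 at 48 h, a change of -0.65 ± 0.16 (limma adjusted p = 0.0403). ITGA9, a chain of a tenascin-C receptor, fell in COLO858 from 5.10 and 4.66 FPKM to 0.597 and 0.489 at 48 h (-1.93 ± 0.14, limma adjusted p = 0.00152). In MMACSF it read 19.1 and 20.8 FPKM under DMSO and 33.1 and 30.9 at 48 h (0.65 ± 0.12, limma adjusted p = 0.0151). The 48 h responses of ITGB3 and ITGA9 differed between the lines by -2.78 ± 0.19 and -2.58 ± 0.16 (limma adjusted p = 6.15e-05 and 3.99e-05). ITGA4, a chain of a fibronectin receptor, rose in COLO858 at 24 h (1.61 ± 0.20, limma adjusted p = 0.00571) and fell in MMACSF at 48 h (-1.57 ± 0.18, limma adjusted p = 0.00501). Its response differed between the lines by 2.61 ± 0.28 at 24 h and 2.60 ± 0.28 at 48 h (limma adjusted p = 0.00118 and 0.000589). ITGB8 fell in COLO858 at 24 h (-1.61 ± 0.25, limma adjusted p = 0.00998), and its 48 h libraries overlapped the DMSO pair. The ITGA4 and ITGB8 calls within a line ended without any 1 of that line's 6 libraries (1.40 to 1.81 and -1.69 to -1.44 for ITGA4, -1.89 to -1.34 for ITGB8), those of ITGA9 without any 1 of the 4 libraries compared (-1.98 to -1.88 at 48 h), and those of ITGB3 held.

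Of the crosslinking enzymes, 3 of 5 tested were called lower in COLO858 at 24 h and 2 of 5 at 48 h, beside 5.71% and 4.73% of all genes tested. Their median change was -1.53 at 24 h and 0.21 at 48 h, beside 0.06 and -0.01 over all genes tested. At 48 h the 3 others, LOXL1, LOXL2 and LOXL3, lay above DMSO by 0.49 ± 0.29, 0.50 ± 0.14 and 0.21 ± 0.13 and were not called. TGM2, a transglutaminase that links fibronectin, fell from 20.2 and 17.1 FPKM to 3.49 and 1.96 at 24 h and 1.55 and 1.22 at 48 h (-3.04 ± 0.24 at 48 h, limma adjusted p = 0.00184). LOXL4, a lysyl oxidase-like enzyme, fell from 4.28 and 4.51 FPKM to 0.269 and 0.304 at 48 h (-2.07 ± 0.14, limma adjusted p = 0.00124). LOXL3 fell from 88.7 and 80.2 FPKM to 29.9 and 27.3 at 24 h (-1.53 ± 0.13, limma adjusted p = 0.00204) and rose again to 101 and 95.3 at 48 h (1.74 ± 0.13 against 24 h, limma adjusted p = 0.00519). In MMACSF LOXL3 alone was tested, and its changes of 0.12 ± 0.16 and 0.13 ± 0.16 were not called. The 24 h call of TGM2 and the LOXL3 step from 24 h to 48 h ended without any 1 of the 6 libraries (-2.73 to -2.12 and 1.68 to 1.81). The other 24 h and 48 h calls of these enzymes ended without any 1 of the 4 libraries compared, with the same sign.

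Few microfibril partners were called, as among genes at large. Of all genes tested, 9.82% and 9.47% were called in COLO858 at 24 h and 48 h, and 5.83% and 8.83% in MMACSF. Of 16 microfibril partners, 8 were tested in COLO858, with 0 called by limma at 24 h, 3 having an unadjusted p under 0.05, and 1 called at 48 h. In MMACSF 5 were tested and limma called 0 at either time, with 1 and 2 at an unadjusted p under 0.05. The gene called was FBLN5, needed for elastic fibre assembly, which fell from 3.86 and 3.77 FPKM to 1.30 and 1.08 (-1.14 ± 0.15, limma adjusted p = 0.0071).

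Of 13 relatives of the members, 3 were tested in COLO858, where 1 rose and 1 fell at 24 h and 1 fell at 48 h. Beside them, 9.82% and 9.47% of all genes tested in COLO858 were called at these times. SPOCK1, a proteoglycan related to SPARC, rose at 24 h from 0.163 and 0.104 FPKM to 1.57 and 1.43 (1.14 ± 0.16, limma adjusted p = 0.00816). TGFBI, a relative of periostin, fell from 767 and 728 FPKM to 417 and 403 at 24 h (-0.86 ± 0.10, limma adjusted p = 0.00469) and read 472 and 456 at 48 h (-0.69 ± 0.10, limma adjusted p = 0.00942). In MMACSF limma called 0 of 2 tested relatives, with 1 at an unadjusted p under 0.05 at 24 h and 0 at 48 h. Of the 3 genes of gamma-carboxylation, VKORC1L1 fell in COLO858 at 24 h (-0.99 ± 0.14, limma adjusted p = 0.00865). Limma called 0 of the 3 at 48 h in COLO858, with 2 at an unadjusted p under 0.05, and 0 in MMACSF at either time, with 1 at each. Of all genes tested in MMACSF, 5.83% and 8.83% were called at 24 h and 48 h. The calls of FBLN5, SPOCK1, TGFBI and VKORC1L1 ended without any 1 of the 6 COLO858 libraries and kept their sign.

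**Figure D5:**
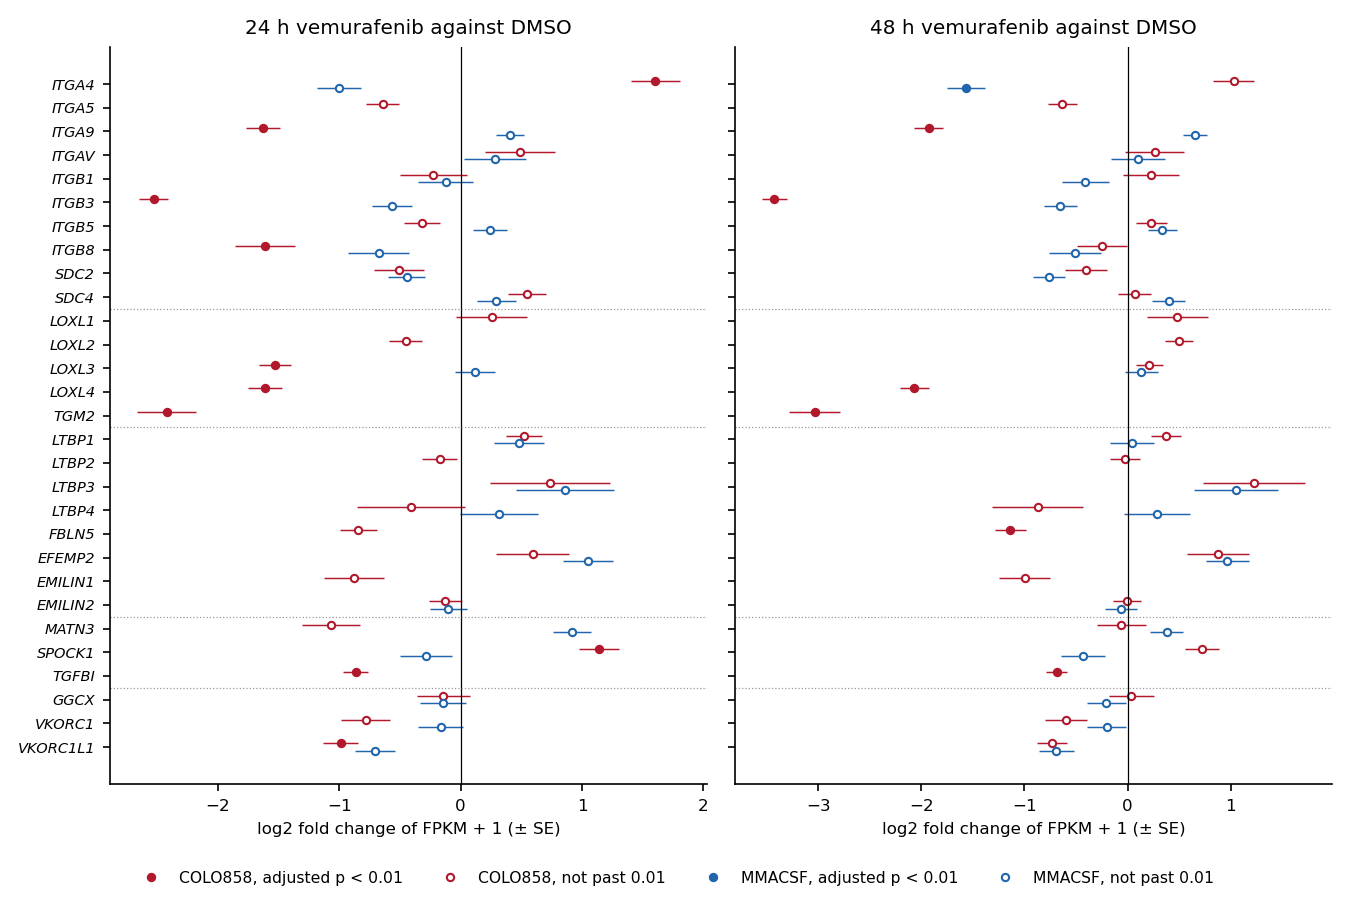
Log2 fold change of FPKM + 1 against DMSO with its SE at 24 h (left) and 48 h (right) for tested receptors, crosslinking enzymes, microfibril partners, relatives of the members and gamma-carboxylation enzymes, from top to bottom and parted by dotted lines (COLO858 red, MMACSF blue, filled where the adjusted p was below 0.01). ITGB3, TGM2 and LOXL4 lie far left of 0 in COLO858 at both times, and ITGA4 lies on opposite sides of 0 in the lines.

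Melanocyte markers were present in both lines, but in COLO858 the melanosome protein MLANA lay between 0.299 and 0.725 FPKM and the pigment enzyme TYR between 0.282 and 1.21. The 8 markers summed to 702 to 717 FPKM under DMSO in COLO858, 3922 to 4158 at 24 h and 4144 to 4149 at 48 h, and to 11159 to 17555 over the MMACSF libraries. In COLO858 4 of 7 tested were called higher at each time, and in MMACSF 1 of 8 at 24 h and 3 of 8 at 48 h. Of all genes tested, 4.11% and 4.74% were called higher in COLO858 at these times, and 2.22% and 3.42% in MMACSF. Most of the COLO858 sum after the drug was DCT, a pigment enzyme, which rose from 252 and 283 FPKM to 2139 and 2161 at 48 h (3.01 ± 0.11, limma adjusted p = 0.000305). Since several members are also known from fibroblasts, the levels of 8 fibroblast markers stand beside them. They summed to 9.83 and 12.6 FPKM under DMSO in COLO858, 18.6 and 21.8 at 24 h, and 26.4 and 36.4 at 48 h. Of 6 tested, 1 was called in each direction at 24 h, and at 48 h 2 were called higher and 1 lower. Over all genes tested, 4.11% were called higher and 5.71% lower at 24 h, and 4.74% and 4.73% at 48 h. COL3A1 rose from 0.147 and 0.182 FPKM to 6.23 and 6.88 at 48 h (2.70 ± 0.13, limma adjusted p = 0.00056), whereas COL1A2 fell from 2.63 and 2.61 to 0.141 and 0.0840 (-1.70 ± 0.19, limma adjusted p = 0.00456). DCN was listed at 0 in both COLO858 DMSO libraries. In MMACSF the list summed to 58.0 and 79.3 FPKM under DMSO, 45.3 and 53.6 at 24 h, and 20.2 and 29.1 at 48 h, with THY1 listed at 0 in every library. None of the 3 tested there was called by limma at 24 h or 48 h, and 0 and 3 had an unadjusted p under 0.05. Over all genes tested in MMACSF, 5.83% and 8.83% were called. Most of the sum was LUM, a matrix proteoglycan, at 52.2 and 73.3 FPKM under DMSO and 17.9 and 26.4 at 48 h in MMACSF, and at 5.30 and 8.27 and then 15.3 and 25.6 in COLO858. It was called within neither line, while the difference between lines at 48 h was called (2.91 ± 0.45, limma adjusted p = 0.00351). This sum moved up with SPARC in COLO858 and down with FN1 and SPARC in MMACSF, and its part in those results was not tested. None of 4 endothelial markers averaged 1 FPKM in any group, and they summed to at most 0.794 FPKM. Of 4 keratinocyte markers 1 did, KRT10, at 6.41 to 10.3 FPKM, and KRT5 and KRT1 were listed at 0 throughout. Of 4 leukocyte markers 1 did, the lysosomal protein CD68, and the T cell marker CD3E was listed at 0 throughout. CD68 fell in COLO858 from 11.8 and 14.2 FPKM to 3.86 and 5.03 at 48 h (-1.37 ± 0.20, limma adjusted p = 0.00963), and in MMACSF it lay between 48.3 and 84.8 FPKM and was not called. Its difference between lines at 48 h was -1.33 ± 0.24 (limma adjusted p = 0.00773). How the calls of the markers fared with a library left out, or under other settings, was not examined.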

How the data were processed

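RNA of 12 libraries was measured by the authors with a stranded, poly(A)-selected kit, ERCC spike-in and single reads. Per the labels and the study's methods, the authors aligned reads with TopHat, run with its defaults on hg19, and derived expression with Cuffdiff on Galaxy. The deposited values are FPKM, 1 table per line with a column per library; versions, gene annotation, strand setting and scaling are not given in the sources used here. Depth is unknown. All 12 value columns were used (0 left out). Each line's 6 libraries were fitted in limma 3.58.1 (R 4.3.3, lmFit and eBayes with trend) on log2(FPKM + 1), for genes averaging 1 FPKM or more in any group, and differences between lines over 12 libraries. P-values were Benjamini-Hochberg adjusted and called under 0.01. FPKM are not counts, so no count test was run. The procedure was tested on simulated data. Members and lists were chosen with earlier results of these data known. Named genes were all 10 members, up to 4 called genes per list by size of change against DMSO, and the 3 genes most like FN1, TNC, SPARC and MATN2; COL3A1, COL1A2, LUM, DCT, MLANA, TYR, CD68 and KRT10 among the markers, and LOXL1 and LOXL2, were named after their values were seen. A gene that the rule names is not reported here. Gene positions are from GENCODE lifted to GRCh37, the hg19 assembly. Alternatives were a pseudocount of 0.1, no filter or a filter at 10 FPKM, a replicate block, median-ratio rescaling, no variance trend, only the libraries compared, a threshold of 0.05, and leaving out each library.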

Additional observations from a re-analysis of the deposited data

Results flagged for a closer look

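The test of the difference over 12 libraries called 3 of the 9 tested members at 24 h and 7 at 48 h. Beside them, 3.71% and 7.48% of all genes tested were called at these times. Each difference is the COLO858 minus the MMACSF log2 fold change. For MGP the difference was 2.72 at 24 h and 5.66 at 48 h, and for SPARC 2.55 and 4.53. For MATN2 it was 1.05 and 3.82. At 48 h, and not at 24 h, it was also past the threshold at 1.95 for FN1, 1.76 for TNC, 1.50 for FBN1 and 1.42 for VTN. The members were chosen with these responses known, so the differences are descriptions. Line, medium and plating density cannot be told apart. Groups of 2 replicates were too small for a test of single outlying libraries.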

How the results depend on the processing

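All 31 member changes that were called kept their sign in all 488 values under the alternatives, but not all stayed past the threshold. Many of these values could not differ from the main fit. The filters, the replicate block, the variance trend, the threshold and the use of only the libraries compared leave a change itself the same. So does leaving out a library of a group not compared. A called change also always passes a threshold of 0.05. The sign was thus tested only by the pseudocount, the rescaling and leaving out a library compared. Among member changes not called, 17 values changed sign. Counts of members called moved by over 1.5 times in these cases, beside the replicate block and left-out libraries given apart. In COLO858 from 24 h to 48 h the count of 2 became 1 without a filter, 1 with a filter at 10 FPKM, 4 with median-ratio rescaling, 1 with only the libraries compared and 5 at a threshold of 0.05. Over all genes the 175 calls of this comparison became 86, 136, 271, 35 and 809 in the same order. With a pseudocount of 0.1 the count stayed at 2, with SPARC called in place of FBN1. In MMACSF the count of 2 at 24 h became 5 at 0.05, and with only the libraries compared the 4 at 48 h became 2 and the 1 from 24 h to 48 h became 0. Over all genes the calls in these cases went from 734 to 2561, from 1113 to 576 and from 28 to 22. Under the other alternatives the counts of members stayed within 1.5 times, among them 5 in place of 7 in COLO858 at 48 h with a filter at 10 FPKM. That filter took the calls over all genes there from 1202 to 779. Leaving out 1 library gave 3 to 5 members called in COLO858 at 24 h, 4 to 6 at 48 h and 0 from 24 h to 48 h, 1 to 2 in MMACSF at 24 h, 2 at 48 h and 0 from 24 h to 48 h, and 2 to 3 and 6 to 7 for the difference between lines at 24 h and 48 h. Such fits have fewer libraries and assume that a lone replicate varies like the other groups. Against DMSO they also called fewer genes at large in both lines, so a call against DMSO lost in them is not particular to a member. That did not hold from 24 h to 48 h in MMACSF when either 48 h library was left out. Depth is unknown, so its limit on single values could not be given.

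The replicate numbers are shared by the groups, but nothing in the labels says that they pair libraries, and each line has only replicates 1 and 2. Deviations of same-numbered libraries correlated at 0.196 to 0.211 in COLO858 and 0.0628 to 0.113 in MMACSF, and at 0.753 to 0.779 and 0.590 to 0.673 when small RNA genes were left out. With the replicate number as a block, members called numbered 9 in COLO858 at 24 h, 8 at 48 h and 6 from 24 h to 48 h, and 4 in MMACSF at 24 h. Members gained in this way were FN1, FBN1, FBLN1 and POSTN against DMSO at 24 h, FBLN1 against DMSO at 48 h and FN1, SPARC, POSTN and MGP from 24 h to 48 h in COLO858, and SPARC and MGP at 24 h in MMACSF, and VTN was gained for the difference between lines at 24 h. Over all genes the block raised the calls from 1247 to 5719, 1202 to 5549 and 175 to 2280 in these COLO858 comparisons, from 734 to 3284, 1113 to 3790 and 28 to 32 in MMACSF, and from 505 to 2396 and 1017 to 3434 for the difference between lines.

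Values that changed sign were all of changes not called. With median-ratio rescaling the COLO858 step of FBLN1 from 24 h to 48 h was 0.044 and the MMACSF change of MGP at 48 h was -0.048. Leaving out 1 library gave -0.37 to 0.079 for POSTN and -0.52 to 0.026 for ITGB8 in COLO858 at 48 h, and -0.18 to 0.15 for FBLN1 and -0.0047 to 0.26 for VTN in COLO858 from 24 h to 48 h. In MMACSF it gave -0.23 to 0.0033 for FN1 at 24 h, -0.063 to 0.090 for MGP and -0.011 to 0.28 for LOXL3 at 48 h, and -0.056 to 0.11 for MATN2, -0.093 to 0.021 for FBN1 and -0.39 to 0.023 for VTN from 24 h to 48 h. For the difference between lines it gave -0.056 to 0.13 for FBN1 at 24 h and -0.41 to 0.034 for POSTN at 48 h. The cause was not tested.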
